A study of Mus musculus with 12 samples.

Results

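The sequences described here are the small RNAs of control DN3 thymocytes that the authors' annotation places in the 5′ flank of a RefSeq transcript and on the same strand as that transcript. They were selected as the entries of the control genic list with the category 5′ transcript flank and sense orientation, which gave 3390 of 54267 entries and 1962 of 10847 genes (18.1% of the genes in the list). Each entry is 1 distinct sequence with its position and carries no read count, so the values below count different sequences and not molecules. The 3390 sequences share 1 library and often overlap, so they are not replicates of a condition.

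The series profiled small RNAs of 4 mouse cell types in 3 genotypes (control, Drosha-deficient and Dicer-deficient), with 1 library for each of the 12 combinations. The library used here came from DN3 thymocytes sorted by flow cytometry from the thymus of Lck-cre mice, 6 to 7 weeks old, on a backcrossed C57BL/6 background. Total RNA of 19 to 30 nt was cut from a gel, and only molecules phosphorylated at the 5′ end and with a free hydroxyl at the 3′ end could take up the adaptors. The control mice carry the Cre recombinase under Lck regulation, and the labels name neither the part of the Lck promoter in the transgene nor the number of mice pooled. With 1 control library there is no replicate check and no test. Intervals are 95% exact (Clopper-Pearson) binomial intervals for shares, or order-statistic intervals for medians, and they cover counting error only. The depth of the library is unknown.

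DN3 cells are immature thymocytes that rearrange the T cell receptor beta chain gene, and of 7 marker genes of this stage 6 appear somewhere in the genic list. Il2ra, a chain of the interleukin receptor that marks the stage, had 28 entries of any category, Rag1, a recombinase subunit, had 21, and Ptcra, the invariant pre-T cell receptor chain, had 0. Genes that mark other cells were scarce. No erythroid or myeloid marker was listed, 2 B cell markers had 3 entries together, 2 markers of later T cells had 2, and 2 stromal markers had 4.

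RNA polymerase II starts transcription in both directions at many mammalian promoters and often pauses soon after the start, and short RNAs cluster on both sides of such starts. Small RNAs can also be cut from other transcripts that begin near a gene: RNA polymerase III makes tRNAs and stops at a run of T in the coding strand, box C/D snoRNAs carry a short conserved box near each end, and miRNA hairpins are cut by Drosha and then by Dicer. Dicer leaves duplexes with short 3′ overhangs, so neighbouring ends and opposite-strand partners are the features usually read from such lists.

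The sequences below show how sequences pile up at some of the genes with most of them. At Ndufs7, a subunit gene of mitochondrial complex I, 7 of its 54 sequences shared the 5′ end at chr10:79711971 on the plus strand and ran into a stretch of T. The capitals mark that stretch.
Ndufs7, 18 nt: agggacgaccacagcgac
Ndufs7, 21 nt: agggacgaccacagcgacTTT
Ndufs7, 23 nt: agggacgaccacagcgacTTTTT
Ndufs7, 24 nt: agggacgaccacagcgacTTTTTc

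At Rabggtb, which encodes a subunit of the enzyme that prenylates Rab proteins and hosts snoRNAs, 16 of its 41 sequences began at chr3:153575168 on the minus strand and were 17 to 32 nt long. The capitals mark TGATGA, the letters of the snoRNA C box.
Rabggtb, 17 nt: ggtcaaTGATGAgctgg
Rabggtb, 23 nt: ggtcaaTGATGAgctggcatgta
Rabggtb, 30 nt: ggtcaaTGATGAgctggcatgtattctgaa

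At Gtf2f1 (a subunit of the general transcription factor TFIIF) 5 of 32 sequences shared a 5′ end, and at Sfrs7 (now Srsf7, a splicing factor) 4 of 29 did. At Stap2 (a signalling adaptor) 3 of 10 did so. The capitals mark the part that all sequences with that 5′ end have in common, and the ends that differ are in lower case. The start positions are chr17:57150804 for Gtf2f1, chr17:80606630 for Sfrs7 and chr17:56145327 for Stap2, all on the minus strand.
Gtf2f1, 18 nt: TGGTGATCTAGAGTAGTT
Gtf2f1, 22 nt: TGGTGATCTAGAGTAGTTacag
Sfrs7, 18 nt: TTGCAGGCAGAGGAGGTT
Sfrs7, 21 nt: TTGCAGGCAGAGGAGGTTgcg
Stap2, 18 nt: TGGGTTCCCGTGTCGTTC
Stap2, 20 nt: TGGGTTCCCGTGTCGTTCcc

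A few of the sequences coincided with miRNAs in the RefSeq tables of GRCm38.p6 that were not counted as miRNAs in the authors' list for this library. They are shown beside the mature form, with the seed (bases 2 to 8) in capitals. The sequences shown here for Krcc1, Hspb6 (a small heat shock protein gene) and Gspt1 (a translation termination factor gene) begin at the first base of miR-8112, miR-9769-3p and miR-1945, so they carry the same seed. Other Krcc1 sequences begin at other bases of the hairpin and do not carry it.
miR-8112: uCUCCGCCaccuccaccgca
Krcc1, 20 nt: tCTCCGCCacctccaccgca
Krcc1, 24 nt: tCTCCGCCacctccaccgcagcct
miR-9769-3p: uAGGGUCUguucuguguccucc
Hspb6, 22 nt: tAGGGTCTgttctgtgtcctcc
miR-1945: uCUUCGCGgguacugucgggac
Gspt1, 20 nt: tCTTCGCGggtactgtcggg

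Most genes had a single sense 5′ flank sequence, and a small number of genes held long series of overlapping ones. Of the 1962 genes, 1367 (69.7%) had 1 sequence, 363 had 2, 157 had 3 or 4, 55 had 5 to 9 and 20 had 10 or more. The 20 genes with 10 or more held 440 sequences (13.0%). There were 3112 distinct 5′ ends and 3175 distinct 3′ ends among the 3390 sequences. Each sequence is listed once and most genes have 1, so most ends are distinct by construction. The antisense 5′ flank had 4189 distinct 5′ ends among 4451 sequences, so this is not particular to the sense flank. The sequences lay on 24 chromosome names, 6 of them on unplaced contigs, and chromosome 17 held 7.43% of them against 4.60% of all entries of the list. Of the 252 sequences on chromosome 17, 106 belonged to Gtf2f1, Sfrs7, Ppp1r10, Calm2 and Stap2, and without these 5 genes its share was 4.45%.

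The 20 genes differed when set beside the GENCODE M21 transcripts and the small RNA genes that RefSeq lists within 1000 bases of the gene's start in GRCm38.p6. In 10 genes every sequence was an exact stretch of a GENCODE transcript of the same gene: Polr2a, Rabggtb, Sfrs7, Vgll4, Ints6, Hexim1, Calm2, Tfrc, Marcksl1 and Gtf2b. In 4 genes no sequence was: Gtf2f1, 2610301B20Rik, Fbxo31 and Stap2. For 7 of the 20 a small RNA gene lay near the start: a tRNA gene for Ndufs7, Agbl5, Fbxo31 and Polr3e, a snoRNA gene for Rabggtb, and a miRNA gene for Ppp1r10 and Lck. Gtf2f1 and Stap2 had no such neighbour listed. Calm2 and 2610301B20Rik could not be searched because the promoter table did not match them, but 14 of the 22 sequences of 2610301B20Rik matched a GENCODE entry called n-TSaga9, a name in the style of tRNA genes.

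**Figure D1:**
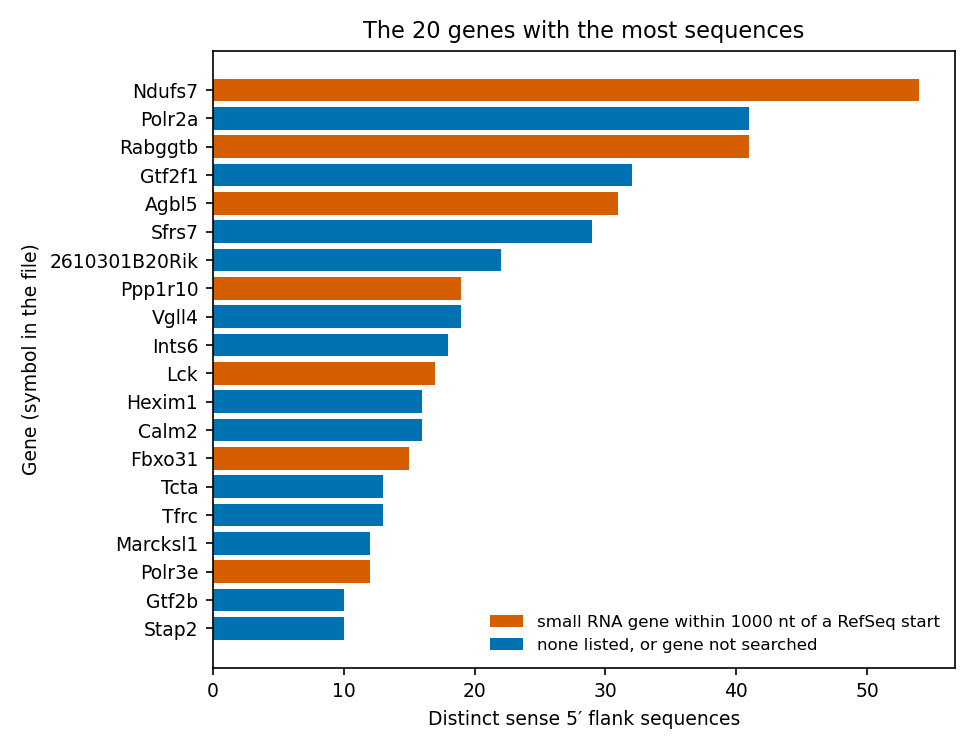
Number of distinct sense 5′ flank sequences (horizontal axis) for the 20 genes with the most, coloured by whether RefSeq GRCm38.p6 lists a small RNA gene within 1000 nt of a start of the gene. Ndufs7 led with 54 and the 20th gene had 10, and 7 of the 20 had such a neighbour.

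Several of these genes encode parts of the transcription machinery. Polr2a, the largest subunit of RNA polymerase II, had 41 sequences at chr11:69571943-69572137 with 28 different 5′ ends, which lay from -2 to 176 nt of the RefSeq start with a median of 17. Gtf2f1 had 32 sequences within 53 nt at chr17:57150769-57150821, all starting 79 to 110 nt upstream. Gtf2b, which encodes the factor TFIIB, had 10 sequences 6 to 18 nt upstream of its start. Hexim1, an inhibitor of the elongation factor P-TEFb, had 16 sequences at -94 to -57, with a median length of 18 nt, and Ints6, a subunit of Integrator, had 18 at -26 to -8. Polr3e, an RNA polymerase III subunit gene, had 12 sequences and the tRNA gene n-TLaag4 nearby. The genes were ranked by count alone, and this grouping was made after they were seen. No list of transcription genes stands behind it, and the share of such genes among all listed genes was not counted.

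**Figure D2:**
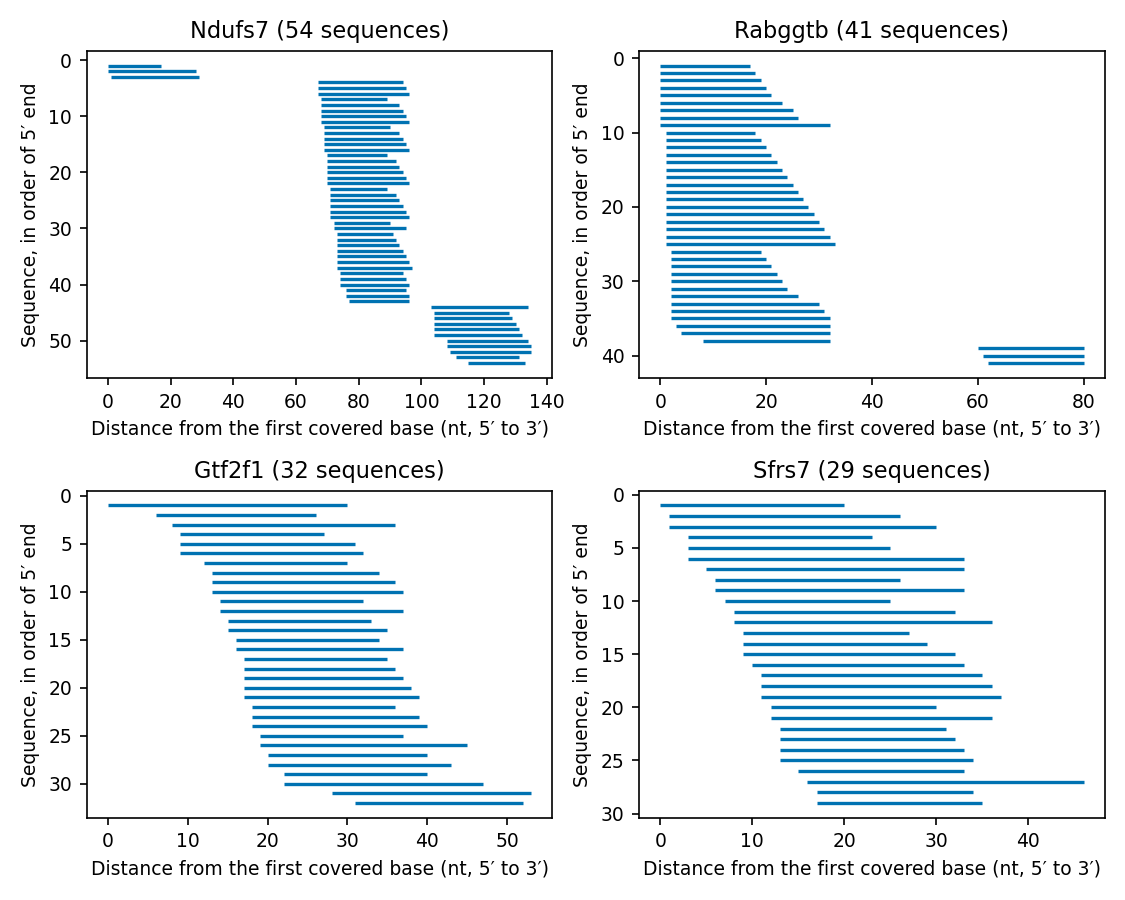
Each line is 1 distinct sequence, drawn from its 5′ to its 3′ end in nt from the first covered base of the gene's sequences, for Ndufs7 (54), Rabggtb (41), Gtf2f1 (32) and Sfrs7 (29). Ndufs7 and Rabggtb show blocks that share ends, while the 32 sequences of Gtf2f1 and the 29 of Sfrs7 step along spans of 53 and 46 nt with 16 and 15 different 5′ ends.

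The pile-ups of Sfrs7 and Gtf2f1 lay on different sides of the RefSeq start. The 29 Sfrs7 sequences covered 46 nt (chr17:80606598-80606643), began 2 to 19 nt downstream of the RefSeq start, and all matched a GENCODE transcript of the gene. The 32 of Gtf2f1 matched no GENCODE transcript, and Gtf2f1 had 1 other entry in the whole list, a sense intronic one. Stap2 had 10 sequences within 38 nt and no other entry of any category. Tfrc, the transferrin receptor gene, had 13 sequences within 41 nt that began 121 to 140 nt upstream of the RefSeq start, yet all 13 lay in GENCODE transcripts of Tfrc. The same was seen for all 16 sequences of Hexim1, all 18 of Ints6 and all 10 of Gtf2b. For Tfrc and these genes the annotated starts of the sources therefore differ.

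Sequences that could be placed against a transcript start showed a sharp peak at the start and others spread upstream. Starts were set in the list's own coordinates by exact matches to RefSeq promoter sequences, which placed 1989 of the 3390 sequences (58.7%, 1067 genes). The sequences themselves helped to set these starts: 1523 of them matched a promoter of their own gene, those of at least 18 nt were used, and a match can lie only from 250 bases before to 50 bases after the start, so the placed set favours that window. Their 5′ ends had a median distance of -65 nt (interval -75 to -51, negative meaning upstream) and quartiles of -207 and 2. Of the placed sequences, 602 (30.3%, interval 28.3 to 32.3) began within 25 nt of the start, from -25 to 24, and 593 (29.8%) began 101 to 300 nt upstream. With starts placed by sense 5′ UTR sequences only, an alternative chosen after seeing the data that does not use the 5′ flank sequences to set starts, 309 sequences of 141 genes were placed. Of these, 46.3% (interval 40.6 to 52.0) began between -25 and 24, 20.7% between -300 and -101 and 20.1% between -500 and -301, where all placed sequences had 12.3%. The peak at the start was seen with both placements, while the shares depended on how starts were placed. The alternative placed 0 sequences at 25 nt or more downstream, where the main placement had 231. Its share near the start is therefore not an independent check. The commonest single distances were -2 (30 sequences of 27 genes), -1 (22 of 19 genes) and 14 (20 of 17 genes). The category itself bounds this peak, since sense sequences past the start of the authors' transcript fall in other categories. From -25 to -1 there were 300 placed sense flank and 36 placed sense 5′ UTR sequences, and from 0 to 24 there were 302 and 942. The RefSeq start of this build lay upstream of the 5′ end or at it in 533 sequences (26.8%), so for these the authors' 5′ flank lies within the RefSeq transcript.

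**Figure D3:**
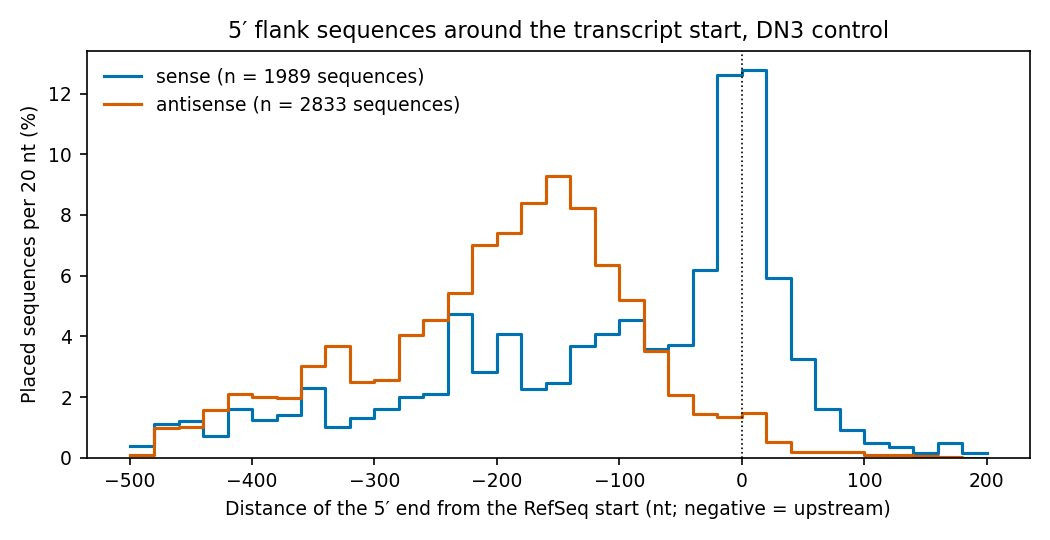
Distance of each sequence's 5′ end from the RefSeq start (horizontal axis, nt, negative upstream) as a percentage of placed sequences per 20 nt (vertical axis), for sense and antisense 5′ flank sequences. The sense sequences peak at the start, with 30.3% between -25 and 24, while the antisense sequences peak upstream, with 63.3% between -300 and -101.

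The antisense sequences of the same flanks were distributed differently. Of 2833 placed antisense sequences, 90 (3.18%, interval 2.56 to 3.89) began between -25 and 24 and 1794 (63.3%, interval 61.5 to 65.1) between -300 and -101, with a median of -183 nt. Sense 5′ UTR sequences had a median of 39 nt. The difference between the sense and antisense flanks far exceeds their counting intervals, but it was not tested because overlapping sequences are not independent. With starts placed by sense 5′ UTR sequences only, 2.49% of 362 antisense sequences began between -25 and 24 and 55.2% between -300 and -101. Without genes that have a small RNA gene near the start, the sense median was -46 nt and 585 of 1815 placed sequences (32.2%) began between -25 and 24.

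Exact matches to transcripts gave a second view that does not use coordinates. Of the 3390 sequences, 1709 (50.4%, interval 48.7 to 52.1) were found in a GENCODE M21 transcript and 1674 (49.4%) in one of their own gene (933 genes). Of these 1674, 1117 (66.7%) began in the first 50 bases of such a transcript, taking the smallest offset where several transcripts matched. The category favours this. A sequence upstream of the authors' start can lie in a transcript of its gene only where that transcript begins farther upstream. The share is therefore not an independent check of the peak at the start. Among the antisense 5′ flank sequences 729 of 4451 (16.4%) matched any transcript. Matches were made on the same strand, and 0 antisense sequences matched a transcript of their own gene. This share is therefore not comparable with the sense share. Matches to other genes alone were 35 for the sense and 729 for the antisense sequences. A sequence can match several kinds of transcript and is counted under each. Of the sense sequences, 1517 matched protein-coding, 441 retained-intron, 245 nonsense-mediated decay and 195 processed transcripts. A further 32 matches were to snoRNA and 28 to miRNA entries. The remaining 1681 sense sequences (49.6%) matched no transcript of that release.

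The sequences were rich in G and C throughout. The median GC content was 63.6%, against 60.0% for antisense 5′ flank, 65.4% for sense 5′ UTR and 51.6% for sense intronic sequences. Sequences began with G in 33.0%, A in 27.1%, C in 23.9% and T in 15.9%, and ended in G in 39.0%. The deposited miRNA list of the same library, which leaves out sequences under a value of 10, differed in this: 41.1% of its 1067 sequences began with T (interval 38.2 to 44.2). None of the 3390 sequences is in that list. A run of GGG occurred in 1660 sequences (49.0%), against 45.1% of antisense flank, 44.8% of sense 5′ UTR, 47.8% of antisense 5′ UTR and 39.6% of sense intronic sequences. The GC box letters, GGGCGG or CCGCCC, occurred in 181 (5.34%, interval 4.61 to 6.15), against 3.28% of antisense flank and 1.47% of sense intronic sequences. The share was 4.21% (interval 3.72 to 4.74) in the sense 5′ UTR and 4.09% in the antisense 5′ UTR, so these letters are not particular to the sense flank. Base composition moved with position: the median GC content was 60.9% for sequences from -500 to -101 and 65.6% for those from -25 to 24, and the share beginning with G was 30.2% and 37.0%. Sequences from -100 to -26 and from 25 on both had a median of 66.7%, with 36.2% and 39.4% beginning with G. The values near the start are thus not particular to it.

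**Figure D4:**
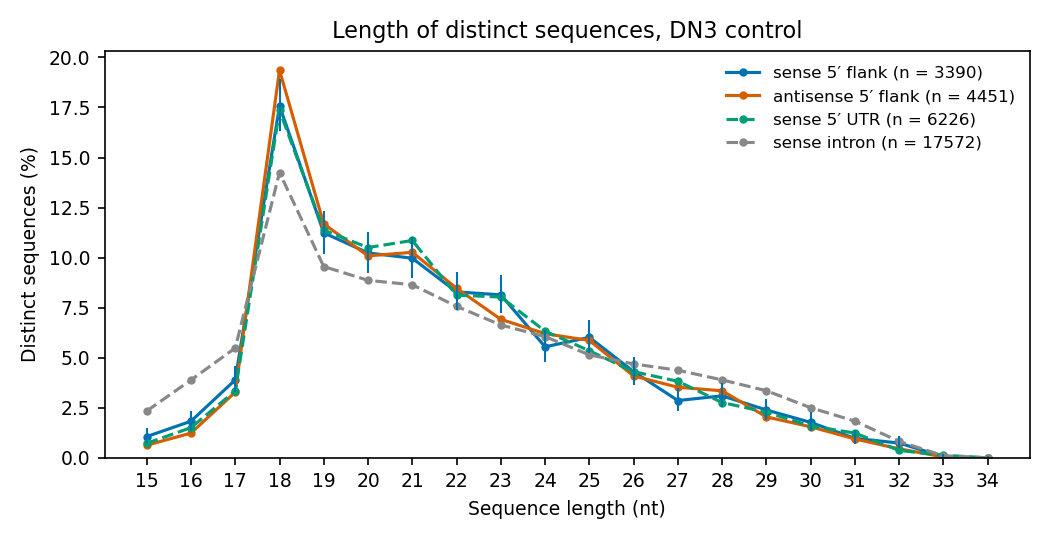
Share of distinct sequences (vertical axis, %) at each length (horizontal axis, nt) in 4 classes of the list, with 95% exact intervals drawn as bars for the sense 5′ flank. All 4 classes peak at 18 nt, at 17.6% for the sense and 19.4% for the antisense 5′ flank.

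The length distribution had its peak at 18 nt, below the 19-nt edge of the gel fraction. The median was 21 nt. Sequences of 18 nt numbered 596 (17.6%, interval 16.3 to 18.9), those of 24 nt or more numbered 941 (27.8%), 826 were shorter than 19 nt and 60 were longer than 30 nt. The 18-nt share was 19.4% in the antisense flank, 17.4% in the sense 5′ UTR and 14.2% in sense introns, so the peak is not particular to the sense flank. Lengths from 21 to 23 nt made up 26.4% (interval 24.9 to 27.9), against 56.3% (interval 53.3 to 59.3) in the miRNA list. Near the start and upstream the lengths were alike: 17.1% of sequences from -25 to 24 and 18.1% of those from -500 to -101 were 18 nt long. The share was 16.8% from -100 to -26. Among the 231 sequences from 25 nt on it was 22.1%, with a median length of 20 nt.

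Sequences were joined into clusters by position, and most clusters held a single sequence. Joining sequences on the same strand that overlapped or lay within 50 nt gave 2236 clusters, of which 1764 held 1 sequence and 472 held at least 2, with 1626 sequences (48.0%) in these. Their median span was 41 nt, the longest spanned 236 nt, and 58 held 5 sequences or more. The joining distance and the width of the flank bound these spans, which were not set beside those of other categories. The largest was the cluster of 54 at Ndufs7 (chr10:79711898-79712032), followed by 41 at Rabggtb (chr3:153575090-153575169), 39 at Polr2a (chr11:69572037-69572137), 32 at Gtf2f1 and 31 at Agbl5 (chr5:31190855-31191086).

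Within a gene the distances between neighbouring 5′ ends were mostly short and showed no second peak. The width of the flank bounds them: 9 of 1989 placed sequences began at -501 or farther upstream. They were not set beside the spacing in other categories. There were 1149 such distances in 577 genes, with a median of 13 nt (interval 10 to 16). Of these, 183 (15.9%) were 1 nt and 422 (36.7%) were at most 5 nt, and 210 exceeded 100 nt. In successive windows of 6 nt the counts were 113 (7 to 12 nt), 55 (13 to 18 nt), 44 (19 to 24 nt), 34 (25 to 30 nt) and 37 (31 to 36 nt), so the window of small RNA length did not stand above its neighbours.

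**Figure D5:**
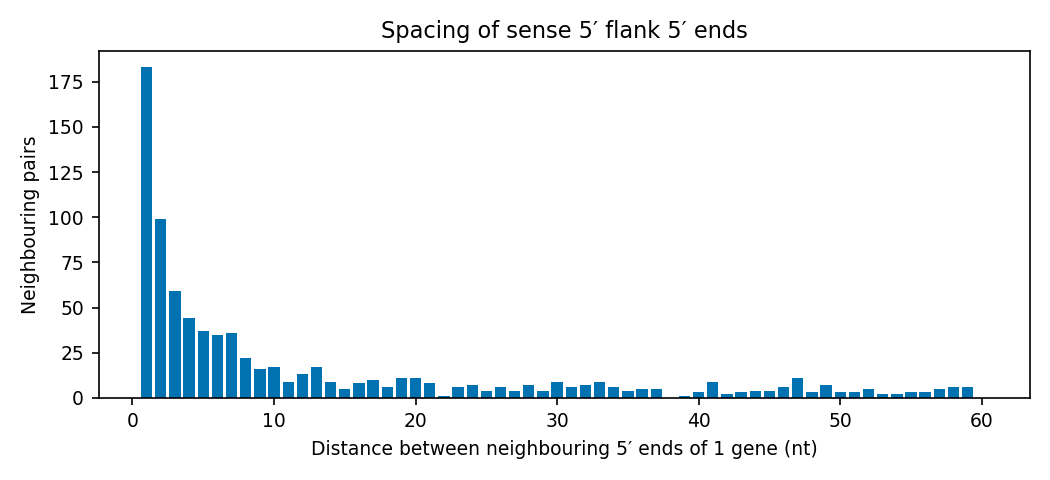
Distance between neighbouring distinct 5′ ends of the same gene (horizontal axis, nt, drawn below 60) against the number of neighbouring pairs (vertical axis). The tallest bar is 1 nt with 183 pairs, and the counts fall to low values with no second peak between 19 and 24 nt.

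Shared 5′ ends were more frequent than shared 3′ ends, but most of that excess came from Rabggtb. Over all genes 610 pairs of sequences had the same 5′ end and 365 the same 3′ end, a ratio of 1.67, against 2.29 in the antisense flank, 1.82 in the sense 5′ UTR and 1.92 in sense introns. Among the 2573 sequences of genes that were searched and had no small RNA gene listed near the start, the counts were 184 and 147. Among the 141 sequences of genes with a tRNA gene near the start they were 166 and 140. The 127 sequences of genes with another small RNA gene near the start gave 222 and 49. Rabggtb alone, where 16 sequences began at 1 position, gave 201 and 39, and without Rabggtb the counts over all genes were 409 and 326.

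Opposite-strand partners were counted for the sense 5′ flank alone. A total of 177 sequences (5.22%) in 118 genes overlapped an entry on the other strand, in 321 pairs, of which 243 were with an antisense 5′ flank sequence. No such share was made for all entries of the list, so whether 5.22% is low or high was not tested. Each sequence of a pile-up counts, so the pairs are not independent. The median overlap was 12 nt. No pair had 3′ overhangs of 2 nt at both ends, 8 pairs had it at 1 end, and 2 pairs had overhangs of 1 to 3 nt at both ends. The gene with the most such sequences was Tfrc with 13, followed by 2610301B20Rik with 8, Mboat7 with 7, and Casc5 and Lck with 6 each.

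Sequences of genes with a tRNA gene near the start often ended in a run of T. RefSeq lists a small RNA gene within 1000 bases of a start for 44 of 1610 genes that could be searched (2.73%), against 137 of 8681 genes of the whole list (1.58%), and these 44 genes held 268 sequences (7.91%). A tRNA gene was the neighbour for 13 genes (0.807%, against 27 genes or 0.311% of the list), which held 141 sequences. Of these 141, 57 ended in TTT (40.4%, interval 32.3 to 49.0), against 17 of the 2573 sequences of genes searched with no small RNA gene listed (0.661%, interval 0.385 to 1.06). Their median length was 23 nt against 21 nt, 44.0% against 26.6% were 24 nt or longer, and 9.93% against 52.2% matched a GENCODE transcript of the gene. Only 3 of their 112 placed sequences began between -25 and 24, and their median distance was -226 nt. Ndufs7 gave 54 of these 112 (median -225 nt) and Agbl5 gave 31 (median -341 nt), and the same numbers stand among the 141. The pooled values of the 13 genes thus rest largely on Ndufs7 and Agbl5.

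The tRNA neighbours differed among these genes. Ndufs7, beside n-TFgaa3 and n-TNgtt7, had 54 sequences starting 181 to 296 nt upstream, and 30 ended in TTT. Agbl5, a carboxypeptidase gene beside n-TAagc15 and n-TYgta9, had 31 sequences, but 4 ended in TTT and 10 shared the 5′ end at chr5:31190882. Fbxo31, an F-box gene beside n-TMcat17, had 15 with 6 ending in TTT. The counts ending in TTT were 5 of 7 for 0610011F06Rik, 4 of 5 for Rnase4, 4 of 5 for Tia1, 3 of 12 for Polr3e and 1 of 7 for Casc5. The other 5 genes had 1 sequence each, and none ended in TTT. Among the 549 sequences of the 352 genes that could not be searched, 19 ended in TTT, and 10 of these were of 2610301B20Rik. Whether these sequences come from the tRNA genes was not tested, since the positions of the tRNA genes in the list's own coordinates were not used here.

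Small nucleolar RNA and miRNA genes were neighbours of other genes, with fewer sequences in all than the tRNA neighbours had. At Rabggtb, with Snord45b, Snord45c and Gm24494 nearby, 32 of the 41 sequences lay inside the Snord45c sequence itself and 9 outside it. All 41 also matched a GENCODE transcript of the gene, and 23 further entries were sense intronic. The 6 genes with a snoRNA neighbour held 51 sequences, 41 of them at Rabggtb. The 17 genes with a miRNA neighbour held 66 sequences. In exact comparisons with RefSeq hairpins, all 7 Krcc1 sequences lay in Mir8112, the 3 of Hspb6 in Gm38670, the hairpin of miR-9769-3p, the 1 of Gspt1 in Mir1945 and 2 of the 3 of Ankrd10 in Mir7238. Krcc1's 7 sequences also matched its own GENCODE transcripts, 1 of them equalled mature miR-8112, and 1 began at base 34 of the hairpin, before the mature sequence. The mature sequence begins at base 75, and further Krcc1 sequences began at bases 74 and 77. These 4 genes were named after their matches were seen.

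The neighbouring entries of the same genes were examined next. Sense 5′ flank genes also had antisense 5′ flank sequences in 606 cases (30.9% of the 1962 genes and 26.0% of the 2329 genes with antisense sequences), and 21.5% of all listed genes had such sequences. They also had sense 5′ UTR entries in 606 cases (30.9%, against 26.2% of all listed genes). For 217 genes (11.1%) the sense 5′ flank sequences were the sole entries. Between the strands, sense sequences made up 43.2% of the 7841 flank sequences (interval 42.1 to 44.3).

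Among T cell genes, 12 of the 31 present in the list had a sense 5′ flank sequence (38.7%, 35 sequences), against 18.1% of all listed genes. Lck, the Src family kinase of the pre-T cell receptor, held 17 of the 35, and the median per gene was 1, as in all 1962 genes. Hes1, a Notch target, had 5 sequences, Tcf7, the transcription factor TCF1, had 3, and Ets1 had 2. The rest had 1 each: Cd3e, Cd3g, Lef1, Myb, Ptprc, Rag2, Tcf3 and Thy1. Their 5′ ends, where placed, lay close to the start for Cd3g (-1), Lef1 (-2) and Rag2 (8) and farther upstream for Myb (-38), Tcf3 (-56), Cd3e (-293) and Ptprc (-449). The list holds genes active in these cells, and it was not matched for length, for level or for entries per gene, so the share is a description. Of the 649 entries of these genes in all categories, 35 were sense 5′ flank, against 3390 of 54267 in the whole list.

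Lck needs a separate description because the control mice carry a transgene under Lck regulation. Its 17 sequences lay at chr4:129235603-129236079, 9 to 463 nt upstream of the RefSeq start with a median of -159, and 5 matched a GENCODE transcript of Lck. The gene also had 13 antisense 5′ flank and 21 sense 5′ UTR entries among its 58. Sequences from the gene and from Lck regulatory sequence in the transgene cannot be told apart here. The sequences that shared a 5′ end at chr4:129235630, 14 nt upstream of the start, were these, with the common part in capitals.
Lck, 25 nt: GTGCTTGAGGGCTCAGAGGGAACCC
Lck, 28 nt: GTGCTTGAGGGCTCAGAGGGAACCCagt

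Histone, ribosomal protein and RNA-binding protein genes are set here beside the 18.1% of all listed genes that had a sense 5′ flank sequence. These gene shares were not matched for entries per gene. Counted by entries of all categories, sense 5′ flank sequences were 34 of 1293 for histone and 21 of 1228 for ribosomal protein genes. They were 95 of 1686 for splicing and RNA-binding protein genes, and 3390 of 54267 in the whole list. Of 69 listed histone genes 18 had sequences (26.1%, 34 sequences), with 5 at Hist1h3d, from 57 to 310 nt upstream, and 4 each at Hist1h1b and Hist1h4i. The 4 of Hist1h1b, a linker histone gene, began between 0 and 36 nt from the start, and all 4 matched its transcript. Many histone genes are near-identical copies of each other, so how the authors assigned them is uncertain. Of 77 ribosomal protein genes 14 had sequences (18.2%, 21 sequences), close to the share of all listed genes, with Rps19 leading at 4. Of 178 splicing and RNA-binding protein genes 44 had sequences (24.7%, 95 sequences). Sfrs7 with 29 and Sfrs2 (now Srsf2) with 9 led these, and 8 of the 9 of Sfrs2 matched its transcripts.

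Cell cycle genes had sequences in 7 of 26 cases (26.9%, 12 sequences), against 18.1% of all listed genes. Of the 265 entries of these genes in all categories, 12 were sense 5′ flank, against 3390 of 54267 in the whole list. Npm1, a nucleolar chaperone gene, had 4, Ccna2 and Myc had 2 each, and Ccne1, Cdk4, E2f1 and Mcm4 had 1 each. Of 38 small RNA genes and snoRNA hosts, 4 had sequences (10.5%, against the same 18.1%, with 44 sequences): Rabggtb had 41, and Gas5, Snhg1 and Snhg10 had 1 each. Gas5 had 384 entries of all categories and Snhg1 had 302, so the 5′ flank held a small part of what these hosts gave. Among the DN3 markers Cd3e and Rag2 had 1 sequence each, and the B cell marker Cd79b had 1.

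The median length of 21 nt and the order of first bases, G, A, C and T, were the same without Ndufs7 and without genes that have a small RNA gene near the start.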

How the data were processed

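Small RNAs of 1 control DN3 library were analysed. The authors deposited a genic list of distinct sequences with RefSeq gene, orientation, category and positions, without counts. They also deposited a miRNA list of whole-number scores (normalized mapping counts per the file headers, total 994020, lowest 10), used for comparison of sequences only. The aligner, mapping filters and build of the list are not given in the sources used here. Of 1523 sequences matched to the RefSeq promoter of their own gene, 34 lay at the same position in GRCm38, so no coordinates of that build were used. Positions are 1-based and as deposited.

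Python 3.11.15, pandas 2.3.3, NumPy 2.4.6, SciPy 1.17.1 and matplotlib 3.10.9 were used. Starts were placed from sequences of at least 18 nt that matched a RefSeq promoter exactly (250 bases before to 50 after the start). This placed 2633 genes, and all 1074 starts placed by at least 2 sequences were identical. Distances run to the nearest placed start within 1000 nt, and base 0 is the first transcribed base. Matches to GENCODE M21 transcripts were exact and on the same strand. RefSeq (GRCm38.p6) served for names (1938 of 1963 IDs matched) and for which genes are neighbours. Clusters joined sequences within 50 nt. Functions were tested on simulated data.

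Named genes were the 20 with most sequences, the 5 largest clusters and members of the gene lists. The members, lists and rules were chosen with earlier results of these data known. The Drosha- and Dicer-deficient libraries and other cell types were not analysed here. Alternatives changed the cluster gap, the unit counted and the genes included.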

Additional observations from a re-analysis of the deposited data

How the results depend on the processing

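The values came from 1 library, so no result has a replicate check, and distinct sequences give no abundance. Of 36 alternatives to 11 results, 9 could change nothing, since no sequence stands in more than 1 row and none is in the miRNA list. Of the other 27, 25 left counts within 1.5 times, or other values within their counting interval. The median distance of -65 nt moved in 2, both chosen after seeing the data: to -47 nt with starts placed by sense 5′ UTR sequences only (where the share from -25 to 24 was 46.3% in place of 30.3%), and to -46 nt without genes that have a small RNA gene near the start. It was -57 nt without Ndufs7. Clusters numbered 2460 when only overlapping or abutting sequences were joined and 2034 with gaps of up to 200 nt. Distances cover 58.7% of the sequences, and starts are those of RefSeq GRCm38.p6, which differ from the authors' gene models. No paired analysis was possible because each group has 1 library and no replicate numbers.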
